A study of Mus musculus with 13 samples.

Results

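5-hydroxymethylcytosine (5hmC) was compared between breast tumours of Phd2 heterozygous mice (n = 4) and of Phd2 wild-type mice (n = 3), in bins of 300 kb on chromosomes 1 to 19. A bin was kept when it was above 0 in at least 1 of the 13 tumours of the study, which left 8019 of the 8219 bins of these chromosomes and of the 9097 bins of the whole table. Both groups were FVB mice of 16 weeks with tumours induced by PyMT, the polyoma virus middle T oncogene. They differed in the Phd2 genotype, PHD2+/- or PHD2+/+, and the labels describe vessels and oxygen supply as restored in heterozygous tumours. The labels do not say in which cells the allele was lost, nor the sex or litter of the mice. The other 6 tumours, from FVB mice of 12 weeks injected with an empty plasmid (n = 3) or a plasmid for the soluble VEGF receptor sFlk1 (n = 3), served only as a reference for how much 5hmC each bin usually holds, and as further samples for the estimate of spread. All 13 tumours were PyMT-induced, frozen in liquid nitrogen, and their DNA was extracted with the iron chelator DFO (200 µM) in the buffers. Each tumour was a separate numbered mouse by its title, so replicates were animals.

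Phd2, encoded by Egln1, is a dioxygenase that uses oxygen to hydroxylate the hypoxia-inducible factors, which marks them for degradation by the Vhl ligase. TET enzymes are dioxygenases of the same broad class, and they use oxygen to turn 5-methylcytosine into 5hmC. In mammalian tissues 5hmC is known to be most common in the bodies and enhancers of active genes and scarce in gene-poor regions. The measure was TAB-seq, in which 5hmC is protected by a sugar before other modified cytosines are oxidised and converted, so that a cytosine still read as such stands for 5hmC. The comparison asks whether tumours with a restored oxygen supply hold more 5hmC, and in which parts of the genome. The files hold the percentage of 5hmC in each bin and no read counts. The depth of each tumour is therefore unknown, and no counting error can be given.

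A value belongs to a bin and to all genes in it, not to 1 promoter. In whole tumour tissue, a change in the mix of cells and a change of 5hmC within cells cannot be told apart. The data are of DNA, so markers of tumour, vessel, stromal and immune cells have no expression value here and the tissue label could not be checked from them. Profiles of tumours of the same group had a Pearson r of 0.821 to 0.877 across bins (9 pairs), and those of different groups 0.80 to 0.883 (12 pairs). Bins are not independent replicates. The heterozygous tumours are numbered 1 to 4 and the wild-type tumours 1 to 3 below, and values are listed in that order.

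CG dinucleotides are the main sites of 5-methylcytosine and 5hmC, and promoters differ widely in how many they hold. To show that the bins with the smallest p-values, described further on, span that range, 4 promoters of their genes are printed, the 2 with the most and 2 of those with the fewest CG. The sequences are from RefSeq (GRCm38.p6), 250 bases before to 50 after the gene's start, all on the minus strand and written 5′ to 3′ along the gene, with each CG in capitals. Oxsm, a gene of mitochondrial fatty acid synthesis, is shown from chr14:16249127-16249426 and holds 38 CG. Cacnb1, a calcium channel subunit gene, is shown from chr11:98022578-98022877 and holds 34. Gm5114, a predicted gene, is shown from chr7:39413111-39413410, and Klra4, a natural killer cell receptor gene, from chr6:130067222-130067521. Both hold 0.
Oxsm: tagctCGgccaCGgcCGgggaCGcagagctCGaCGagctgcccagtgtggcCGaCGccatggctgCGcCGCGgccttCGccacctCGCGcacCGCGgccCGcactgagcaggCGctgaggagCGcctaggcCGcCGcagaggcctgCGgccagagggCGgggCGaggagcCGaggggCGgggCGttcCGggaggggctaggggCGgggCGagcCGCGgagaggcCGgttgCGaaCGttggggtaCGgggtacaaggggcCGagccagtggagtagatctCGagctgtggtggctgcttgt
Cacnb1: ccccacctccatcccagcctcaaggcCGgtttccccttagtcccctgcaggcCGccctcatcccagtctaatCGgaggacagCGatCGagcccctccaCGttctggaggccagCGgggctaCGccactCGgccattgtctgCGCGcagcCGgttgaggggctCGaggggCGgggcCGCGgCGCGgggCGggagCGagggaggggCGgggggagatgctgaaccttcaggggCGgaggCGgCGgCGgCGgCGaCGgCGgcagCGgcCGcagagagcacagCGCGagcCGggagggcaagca
Gm5114: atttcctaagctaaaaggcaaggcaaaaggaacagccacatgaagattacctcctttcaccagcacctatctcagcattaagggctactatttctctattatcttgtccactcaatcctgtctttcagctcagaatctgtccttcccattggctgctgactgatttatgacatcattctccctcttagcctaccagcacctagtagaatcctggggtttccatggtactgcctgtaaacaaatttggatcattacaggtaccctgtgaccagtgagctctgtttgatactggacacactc
Klra4: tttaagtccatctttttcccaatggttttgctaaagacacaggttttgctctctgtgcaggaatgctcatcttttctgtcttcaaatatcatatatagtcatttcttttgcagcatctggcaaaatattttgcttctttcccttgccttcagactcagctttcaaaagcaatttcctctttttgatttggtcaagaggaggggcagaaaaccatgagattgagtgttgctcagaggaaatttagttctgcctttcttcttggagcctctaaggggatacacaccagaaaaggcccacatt
Over 20085 promoters of these chromosomes the median was 14 CG, 6.75% held at least 38, and 4.40% held 0. At least 1 CG, searched as those letters (the same on both strands), was in 95.6%. A promoter was called CpG-rich when over 50% of its bases were G or C and its CG count was over 0.6 of that expected from its base content, as were 46.2%.

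Mean 5hmC over the 8019 bins was 3.05%, 3.29%, 2.91% and 2.63% in the heterozygous tumours, and 2.51%, 2.25% and 2.5% in the wild-type tumours. These means did not overlap between the groups. Heterozygous tumour 4 lay nearest to the wild-type tumours, and wild-type tumour 2 was the lowest of all. Mean and SD were 2.97% ± 0.278 (n = 4) and 2.42% ± 0.144 (n = 3), so that heterozygous tumours held 0.551 percentage points (SE 0.162), or 22.8%, more. By exact two-sided permutation, p was 0.0571, and the smallest p that its 35 arrangements allow is 0.0286. The 3 tumours with an empty plasmid, of the other age, held 2.77% ± 0.163, between the 2 groups. The medians over bins overlapped, at 2.77%, 2.90%, 2.68% and 2.21% in heterozygous and 2.27%, 2.04% and 2.26% in wild-type tumours. Their group means differed by 0.448 percentage points (exact permutation p = 0.114). On the log2 scale, with 0.5 added, the genome-wide difference was 0.179 (exact permutation p = 0.114).

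The groups parted at the upper end of the distribution of bins, and overlapped at its median and its lower end. In heterozygous tumours 19.7%, 25.1%, 15% and 14.2% of bins held more than 5% 5hmC, and in wild-type tumours 9.23%, 5.03% and 8.80%. The lowest heterozygous tumour thus lay above the highest wild-type tumour. The difference was 10.8 percentage points (SE 2.84), with an exact permutation p of 0.0286, the smallest this design allows. The 90th percentile of bins was 5.98% ± 0.617 (SD, n = 4) against 4.72% ± 0.312 (SD, n = 3), again without overlap (exact permutation p = 0.0286). The 10th percentile was 0.471% ± 0.112 against 0.484% ± 0.0245, with overlap (exact permutation p = 0.80). Bins at exactly 0, which can be empty of reads or of 5hmC, made up 2.12%, 2.74%, 0.736% and 3.73% of bins in heterozygous and 0.998%, 1.91% and 1.2% in wild-type tumours. Heterozygous tumour 4 had the most. Neighbouring bins correlated alike in both groups, with a mean r of 0.556 and 0.561.

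**Figure D1:**
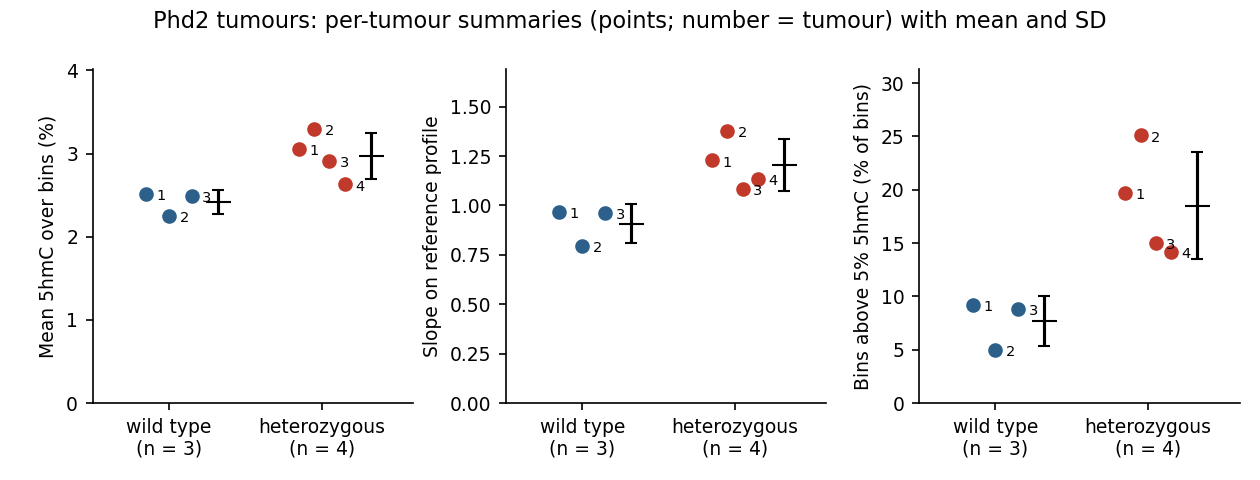
Mean 5hmC over bins (percent, left), slope of each tumour on the reference profile (no unit, middle) and share of bins above 5% 5hmC (percent of bins, right), with 1 numbered point per tumour and bars for mean and SD. In each panel the 4 heterozygous tumours lie above the 3 wild-type tumours, and wild-type tumour 2 is the lowest.

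To ask where the difference lay without using the tumours compared, bins were ranked by their mean in the 6 tumours of the other model and put into 10 classes of equal size. Class 1 held bins with 0% to 0.698% in those tumours, and class 10 those with at least 4.87%. In class 1 the heterozygous tumours held 0.563%, 0.552%, 0.652% and 0.467%, and the wild-type tumours 0.530%, 0.605% and 0.525%. These values overlapped, and the means of 0.559% and 0.553% differed by 0.00536 percentage points (SE 0.0458, exact permutation p = 0.971). In class 10 the heterozygous tumours held 6.72%, 7.53%, 6.17% and 6.14%, and the wild-type tumours 5.47%, 4.64% and 5.44%. The lowest heterozygous tumour was above the highest wild-type tumour there. Mean and SD were 6.64% ± 0.650 (n = 4) and 5.18% ± 0.470 (n = 3), 1.45 percentage points (SE 0.424) or 28.1% apart (exact permutation p = 0.0286, which was 0.143 after adjustment over the 10 classes).

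Between these ends the difference grew with each class. It was 0.0374 percentage points in class 2, 0.237 in class 4, 0.567 in class 6 and 0.930 in class 8. As a percentage of the wild-type mean it went from 0.968% in class 1 through 15.6% in class 4 and 22.3% in class 6 to 26.3% in class 8. Groups did not overlap in classes 7 to 10 and overlapped in classes 1 to 6. The share of bins with the higher mean in heterozygous tumours was 76.1% over all bins, and it was 47.1% in class 1 and 96.9% in class 10. Bins in which every heterozygous tumour lay above every wild-type tumour made up 11.4% of all bins, and went from 2.12% in class 1 to 25% in class 10.

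The gap between class 10 and class 1 was 6.16, 6.97, 5.52 and 5.67 percentage points in heterozygous tumours and 4.94, 4.04 and 4.92 in wild-type tumours. Heterozygous tumours thus had the wider range between poor and rich bins, without overlap, by 1.45 percentage points (SE 0.443, exact permutation p = 0.0286). Divided by each tumour's mean, the gap differed by 0.138 and did not pass (exact permutation p = 0.20). A line fitted to each tumour's bins against the reference profile had slopes of 1.23, 1.38, 1.08 and 1.13 in heterozygous tumours and of 0.969, 0.796 and 0.962 in wild-type tumours. The slopes did not overlap. Their means were 1.21 ± 0.13 (SD, n = 4) and 0.909 ± 0.0977 (SD, n = 3), a difference of 0.297 (SE 0.0862, exact permutation p = 0.0286). The intercepts, the level at a reference of 0, overlapped (difference -0.237 percentage points, SE 0.117, exact permutation p = 0.171). With 1 tumour left out, no p in these comparisons could pass, since the smallest is then 0.10 or 0.0667.

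**Figure D2:**
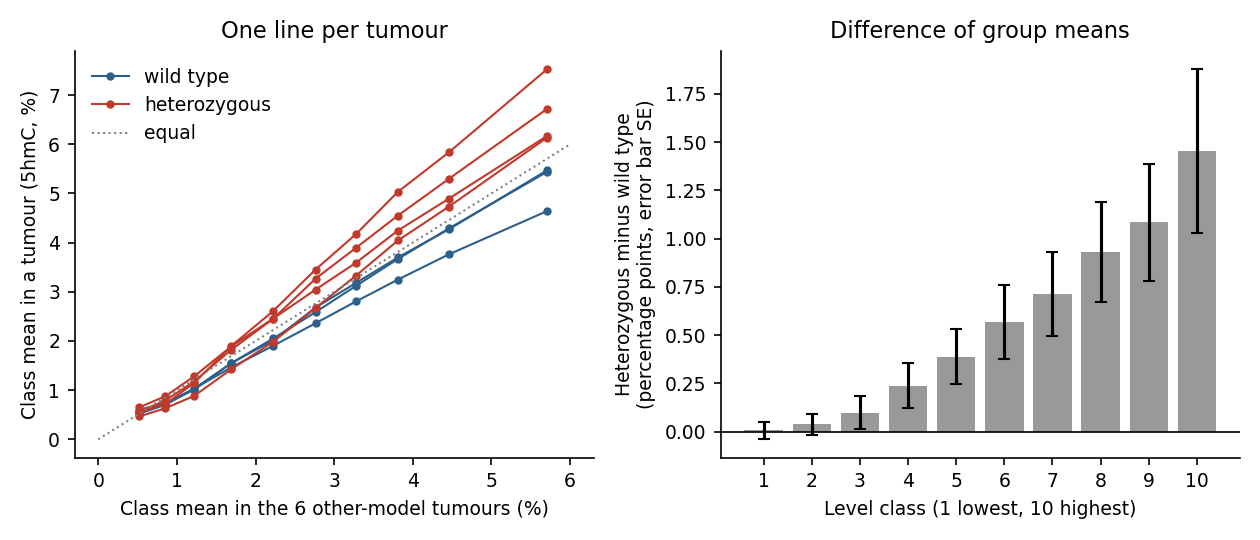
Left, mean 5hmC (percent) of each tumour in 10 classes of bins, against the mean of the class in the 6 tumours of the other model. Right, difference of group means by class in percentage points with SE. The lines of both groups meet in the lowest classes and part with level, and the difference is 0.00536 in class 1 and 1.45 in class 10.

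Gene content followed the same order of levels. Bins in which no protein-coding gene had its midpoint (2616 bins) held 1.74% ± 0.203 (SD, n = 4, heterozygous) and 1.48% ± 0.0591 (SD, n = 3, wild type), 17.4% higher. Bins with 1 gene held 3.08% and 2.52%, those with 2 to 3 genes 3.77% and 3.03%, and those with 4 to 7 genes 3.91% and 3.13%. Bins with 8 or more genes (660 bins) held 3.58% ± 0.324 and 2.87% ± 0.171, 24.4% higher. Both groups thus had most 5hmC in bins of 4 to 7 genes, and less in the densest bins. Groups overlapped only in the bins without a gene. The step from gene-free to densest bins was larger in heterozygous tumours by 0.444 percentage points (SE 0.139, exact permutation p = 0.0571). Relative to the tumour's mean it was 0.0449 larger (exact permutation p = 0.371).

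CpG islands mark the promoters of housekeeping and many developmental genes. The 3361 bins with a CpG-rich promoter held 4.06% ± 0.380 (SD, n = 4, heterozygous) and 3.26% ± 0.214 (SD, n = 3, wild type), 24.7% higher. The 1339 bins with only CpG-poor promoters held 2.30% ± 0.218 and 1.90% ± 0.110, 21.0% higher. The 3319 bins without a promoter held 2.14% and 1.78%, 19.9% higher. The step from CpG-poor to CpG-rich bins was larger in heterozygous tumours by 0.406 percentage points (SE 0.119, exact permutation p = 0.0571), and 0.0337 relative to the tumour's mean (exact permutation p = 0.314). CpG-rich promoters were in 4.99% of the bins of level class 1 and 65.0% of those of class 10.

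Level and gene content were then crossed. In the 3 highest level classes, the 120 bins over which no gene body lay held 5.33% ± 0.633 (SD, n = 4) against 4.31% ± 0.319 (SD, n = 3), 23.7% higher. These 120 include an extreme bin within the last 3 Mb of a chromosome, at 19.6% in the other model. The means were not repeated without it. The 937 bins with at least 4 genes held 5.20% ± 0.503 against 4.11% ± 0.302, 26.4% higher. In the 3 lowest classes, 1133 bins without a gene body held 0.725% and 0.701%, 3.5% higher, and 253 bins with at least 4 genes 0.875% and 0.767%, 14.1% higher. The groups overlapped in the high bins without a gene body and not in those with at least 4 genes. Whether these differences differ was not tested.

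By chromosome, the groups were apart on 19 of 19, with every heterozygous tumour on the higher side. The difference of means was largest in relative terms on chromosome 14. There the heterozygous tumours held 2.81%, 2.97%, 2.68% and 2.32%, and the wild-type tumours 2.18%, 2.02% and 2.19%, which made it 26.6% higher. This value includes the short, gene-free last bin of the chromosome, described further on, with means of 14.7% against 1.96%. The ranking was not repeated without that bin, and chromosome 13 came next, at 25.1% higher. The relative difference was smallest on chromosome 15, with 3.02%, 3.27%, 2.94% and 2.68% against 2.56%, 2.43% and 2.55%, 18.4% higher. Divided by the tumour's genome-wide mean, 0 of 19 chromosomes passed the exact permutation test after adjustment (lowest adjusted p = 0.310) and 1 had an unadjusted p under 0.05. The chromosomes of a tumour share its genome-wide level and are no separate results.

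**Figure D3:**
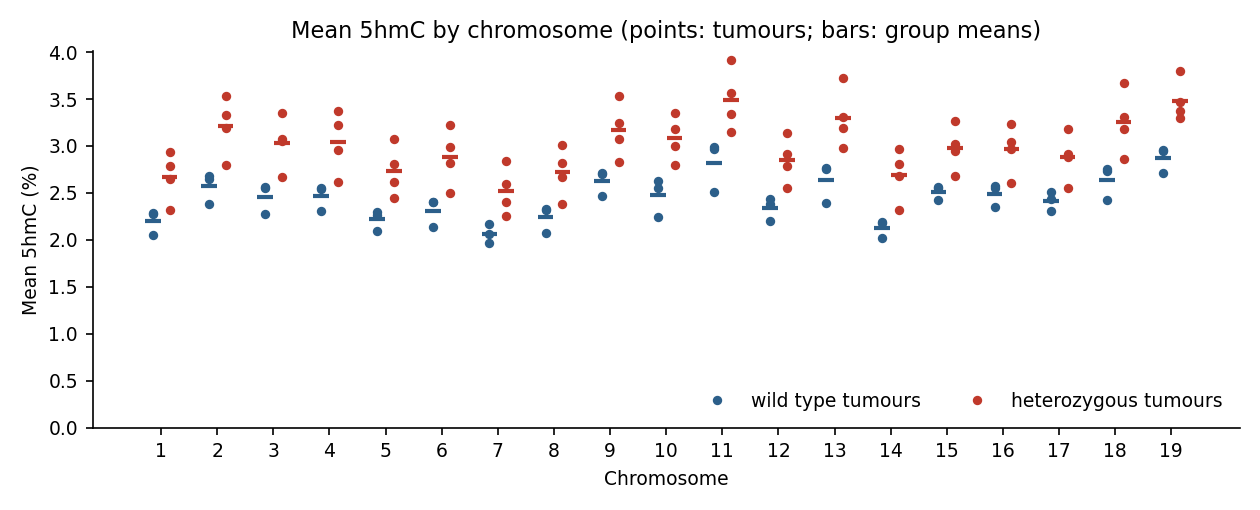
Mean 5hmC (percent) on each of chromosomes 1 to 19, 1 point per tumour with a bar for the group mean. On all 19 the 4 heterozygous tumours lie above the 3 wild-type tumours, and the order of chromosomes is similar in both groups.

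Bins were joined to 805 windows of 3 Mb for a finer map. With limma, 270 windows (33.5%) were higher in heterozygous tumours at an adjusted p under 0.05 and 0 were lower. The groups were apart in 324 windows (40.2%), with the heterozygous tumours higher. All 19 chromosomes held windows that passed. The share that passed followed the level: with windows ranked by the other model's tumours into 5 groups of 161, 2 passed in the group with least 5hmC, then 18, 55, 81 and 114. In the group with most 5hmC that was 70.8%. The median difference was 0.534 percentage points over all windows and 0.868 over those that passed. This count depended on single tumours. It was 0 without wild-type tumour 2, 121 without wild-type tumour 3, 26 without heterozygous tumour 1, 60 without heterozygous tumour 2 and 467 without heterozygous tumour 4, and it was 42 with the 7 tumours fitted alone.

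The windows with the smallest p reached a limma adjusted p of 0.0146 each. Leading them, a window of chromosome 10 from 96000001 to 99000000 holds the genes of small proteoglycans of the matrix, Dcn, Lum, Kera and Epyc, together with Btg1 and Atp2b1. Heterozygous tumours held 4.88%, 5.38%, 4.63% and 4.74% there, and wild-type tumours 3.80%, 3.03% and 3.68%. The groups did not overlap, and the means of 4.91% ± 0.333 (SD, n = 4) and 3.5% ± 0.410 (SD, n = 3) differed by 1.40 points (SE 0.258). Within the window, the bin of Dcn held 3.10% ± 0.817 (SD, n = 4) against 2.74% ± 0.509 (SD, n = 3) and that of Lum 1.80% ± 0.910 against 1.31% ± 0.202, both with overlap and below the window mean. The next, on chromosome 2 from 90000001 to 93000000, runs from a cluster of olfactory receptor genes to Spi1, a myeloid transcription factor gene, and Cry2, a clock gene. It held 4.84%, 5.32%, 4.17% and 4.55% against 3.55%, 3.27% and 3.6%. The third, on chromosome 13 from 108000001 to 111000000, holds Pde4d, which encodes a cyclic AMP phosphodiesterase, and Plk2, a kinase gene. Its values were 4.72%, 5.52%, 5.10% and 5.80% against 4.06%, 3.04% and 4.00%. The groups did not overlap in any of the 3, which held 1.44 to 1.52 times the tumour mean in wild-type tumours.

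Divided by the tumour's mean, 0 of 805 windows (0%) passed (limma, lowest adjusted p = 0.638) and 37 (4.6%) had an unadjusted p under 0.05. With the tumour's mean subtracted instead, 0 passed (limma, lowest adjusted p = 0.0955), and before adjustment 79 windows were higher and 95 lower at that threshold, 174 in all. The window on chromosome 10 with Dcn and Lum was among the 3 with the smallest p for a higher relative level, at 1.66 ± 0.0996 (SD, n = 4) against 1.44 ± 0.0868 times the mean (SD, n = 3). A window on chromosome 6 from 54000001 to 57000000, with Aqp1, a water channel gene, and Pde1c, had 1.46 ± 0.120 against 1.15 ± 0.226. The end window of chromosome 14, from 123000001, had 0.980 ± 0.367 against 0.427 ± 0.159. That value rested on the last bin of the chromosome, from 124800001 to 124902244, shorter than the others and with no gene. It held 25%, 5.26%, 14.3% and 14.3% in heterozygous and 5.88%, 0% and 0% in wild-type tumours. Without it the window's relative level was 0.304 against 0.368, lower in heterozygous tumours.

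Lower relative levels, which also did not pass, were seen on chromosome 15 from 3000001 to 6000000, with the growth hormone receptor gene Ghr and Prkaa1, a subunit gene of the energy sensor AMPK. In percent, this window held 2.77%, 3.16%, 2.91% and 2.69% in heterozygous and 2.98%, 2.58% and 2.94% in wild-type tumours. These levels overlapped and were nearly equal, in a genome where most windows were higher. Relative to the mean they were 0.973 ± 0.0499 (SD, n = 4) and 1.17 ± 0.0230 (SD, n = 3). A window on chromosome 9 from 99000001 to 102000000, with Pik3cb and Ephb1, had 1.16 ± 0.0294 against 1.35 ± 0.0380. A window on chromosome 8 from 87000001 to 90000000, with Sall1, Cyld and Nod2, had 0.560 ± 0.0789 against 0.767 ± 0.0467. For all 6 of these windows the limma adjusted p was 0.638.

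Of the 8019 single bins 0 (0%) passed with limma (lowest adjusted p = 0.305). At an unadjusted p under 0.05 there were 873 higher bins (10.9%) and 32 lower bins (0.399%). Bins among the 8 of smallest p on either side, 7 higher and 8 lower, are described here as the leading values, none of which passed. They are named by genes whose bodies overlap them, in whole or in part. Such a bin need not hold the start or the midpoint of a gene named for it. The first bin overlaps Rarb, a retinoic acid receptor gene, Top2b, a topoisomerase gene, and Ngly1, which encodes a deglycosylase. It also overlaps Oxsm, whose promoter is shown above (chromosome 14, 16200001 to 16500000). Heterozygous tumours held 5.90%, 5.69%, 5.41% and 6.20%, and wild-type tumours 2.38%, 2.92% and 3.33%. Both groups were tight here and far apart, with a difference of 2.92 percentage points (SE 0.665). The next bin covers part of the Klra cluster of natural killer cell receptor genes, Klra4 among them (chromosome 6, 129900001 to 130200000). It held 3.28%, 3.41%, 0.279% and 4.15% against 1.17%, 0% and 0%, so that heterozygous tumour 3 fell among the wild-type tumours. In the other model's tumours the mean of this bin was 0.0989%. The limma SE of 0.548 percentage points took in the spread of those low tumours, while the SD of the heterozygous tumours alone was 1.71. The rank of the bin rests on that SE. It passed only when heterozygous tumour 3, which went against the others, was left out (limma adjusted p = 1.83e-04), with the other model still in the spread.

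The other higher bins kept the groups apart. The bin of Pde1c, a calcium-dependent phosphodiesterase gene (chromosome 6, 55800001 to 56100000), held 5.07%, 5.85%, 4.66% and 7.85% against 1.80%, 1.3% and 3.18%. The bin of Cacnb1 also overlaps Lasp1, an actin-binding protein gene, and the ribosomal protein gene Rpl19 (chromosome 11, 97800001 to 98100000). Its values were 7.48%, 5.97%, 3.91% and 5.91% against 3.33%, 2.20% and 3.07%. The bin of Gm5114 and the zinc finger genes Zfp939 and Zfp619 (chromosome 7, 39300001 to 39600000) held 4.17%, 1.81%, 3.79% and 3.91% against 0%, 0.922% and 1.73%, where heterozygous tumour 2 only just cleared the wild-type tumours. Dis3l2, an exoribonuclease gene (chromosome 1, 86700001 to 87000000), had 7.58%, 7.09%, 5.61% and 6.33% against 4.36%, 2.27% and 3.24%. A bin of chromosome 18 (60300001 to 60600000) with Dctn4, a dynactin gene, the splicing gene Rbm22 and Iigp1, an interferon-induced GTPase gene, had 5.94%, 5.51%, 4.74% and 4.78% against 3.26%, 2.45% and 2.79%. In 4 of these 5 bins and in that of Rarb the level was at or above the 63.7th percentile of bins in the other model, while the Zfp939 bin was at the 43.4th percentile.

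The lower bins were poor in 5hmC. The first overlapped the body of Nrg1, the gene of the ErbB receptor ligand neuregulin (chromosome 8, 32700001 to 33000000). It had 0.398%, 1.33%, 1.57% and 0.484% in heterozygous and 2.07%, 3.51% and 1.65% in wild-type tumours. The groups did not overlap but nearly met. Xkr4 (chromosome 1, 3300001 to 3600000) had 0%, 0.375%, 0.573% and 0% against 1.13%, 1.92% and 0.608%. Kcns3, a potassium channel subunit gene (chromosome 12, 10800001 to 11100000), had 0.829%, 0.579%, 0.779% and 0.337% against 1.44%, 1.85% and 2.30%. Nlgn1, a synaptic adhesion gene (chromosome 3, 25500001 to 25800000), had 0.814%, 0.127%, 0.829% and 0.559% against 0.958%, 2.64% and 1.03%. Without wild-type tumour 2 the differences of Nrg1, Xkr4 and Nlgn1, of -1.46, -0.983 and -0.958 percentage points, became -0.912, -0.634 and -0.410. The other 4 held no gene, on chromosomes 8, 11, 12 and 17, with means of 0.211% to 0.601% against 1.02% to 1.47%, and overlapped on chromosomes 12 and 17. These 8 bins lay between the 4.15th and the 27.6th percentile of level, and the limma adjusted p ran from 0.305 to 0.358.

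**Figure D4:**
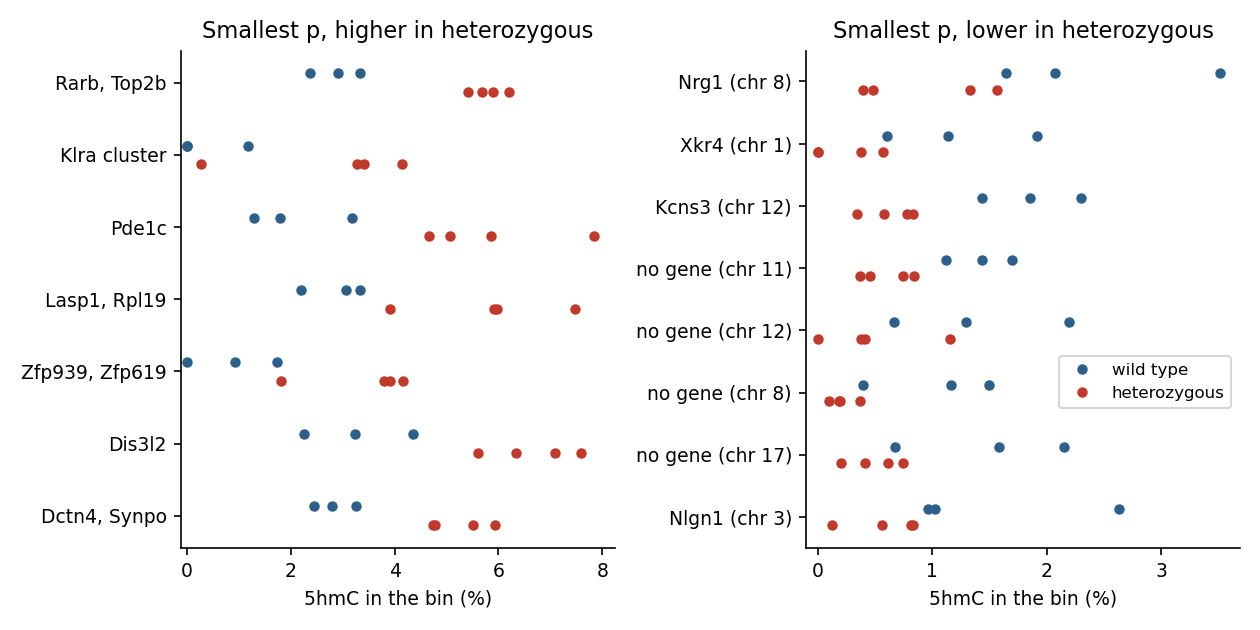
5hmC (percent) in each tumour for 7 higher and 8 lower bins among those with the smallest p in each direction, named by genes that overlap them. Higher bins separate the groups by up to several percentage points, except for heterozygous tumour 3 in the Klra cluster, and lower bins lie under 4% in all 7 tumours.

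In the lists of genes described next, each gene stands for the bin with its midpoint. Over 172 genes of 12 lists, in 165 bins, 145 (84.3%) had their higher mean in heterozygous tumours, against 76.1% of all bins and 81.9% of the 5403 bins with the midpoint of a gene. In 28 (16.3%) the groups were apart with the heterozygous tumours higher, against 11.4% and 13.8%, and in 0 with them lower, against 0.898% and 0.574%. With limma 0 of the 172 passed over all bins, with a lowest adjusted p of 0.305, and 33 had an unadjusted p under 0.05, all of them higher, where 10.9% of all bins and 13.7% of those with a gene midpoint were. Most listed genes lie in bins of high 5hmC. The median difference of each list is therefore given with that of bins of like level in the other model. Over all bins the median difference was 0.411 percentage points.

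Of 14 genes of oxygen sensing, 12 had a higher and 2 a lower mean, with a median difference of 0.876 percentage points against 0.894 in bins of like level. Egln1, the gene of Phd2 itself (chromosome 8, 124908587 to 124949254 in GRCm38), lay in a bin with 6.37%, 8.26%, 4.92% and 2.58% in heterozygous and 4.80%, 2.94% and 5.30% in wild-type tumours. The groups overlapped over their whole range, and this 5hmC value does not check the genotype. Epas1, which encodes the hypoxia-inducible factor HIF-2 alpha (chromosome 17, 86753864 to 86833410), had 4.84%, 7.45%, 5.72% and 4.90% against 4.50%, 3.22% and 3.76%, without overlap (difference 1.90 percentage points, SE 0.726, limma adjusted p = 0.340). Arnt, which encodes the shared partner of these factors, had 5.74%, 4.82%, 4.2% and 5.72% against 2.79%, 3.33% and 4.30%, where 1 tumour of each group crossed. Vhl, the ligase component, had the highest mean of the list, with 5.42%, 8.38%, 4.66% and 5.31% against 3.79%, 3.39% and 5.25%. Hif1a, named here after its values were seen, had 5.11%, 2.65%, 4.39% and 4.01% against 4.64%, 3.07% and 3.30%, with overlap.

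Among 18 genes that hypoxia-inducible factors are known to induce in glycolysis and stress, 14 had a higher mean, with a median difference of 1.03 percentage points against 0.894 in bins of like level. The bin of Adm, the gene of the vessel peptide adrenomedullin (chromosome 7, 110627657 to 110629820), had 4.98%, 8.05%, 6.98% and 6.54% against 4.54%, 4.43% and 3.71%. That of Kdm3a, a histone demethylase gene (chromosome 6, 71588970 to 71632990), had 5.96%, 5.57%, 6.13% and 7.14% against 4.70%, 3.16% and 4.67%. Both kept the groups apart (differences 2.41 and 2.02 percentage points, SE 0.788 and 0.778, limma adjusted p = 0.314 and 0.341). Pdk1, which encodes a kinase that holds pyruvate back from mitochondria, had the highest mean, with 8.62%, 5.48%, 5.69% and 7.34% against 5.45%, 4.95% and 6.27%, with overlap. The 4 genes with a lower mean were Hk2, Pfkfb3, Pfkl and Bnip3, with differences of -0.548 to -0.138 percentage points.

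The list of cytosine modification holds the writers, erasers and readers of DNA methylation. Of its 15 genes on these chromosomes 13 had a higher mean, and the median difference was 0.490 percentage points against 0.894 in bins of like level. Tet3, a gene of the enzymes that make 5hmC (chromosome 6, 83362373 to 83457208), had 5.59%, 7.36%, 5.38% and 5.68% against 3.38%, 3.08% and 4.07%, without overlap (difference 2.49 percentage points, SE 0.771, limma adjusted p = 0.305). Tdg, the glycosylase gene that removes further oxidised forms, had 4.76%, 3.35%, 4.23% and 5.31% against 2.46%, 3.11% and 2.82%. Gadd45a, a stress gene linked to demethylation, lay in the bin with the highest mean, with 6.59%, 9.36%, 7.70% and 7.49% against 8.51%, 6.72% and 7.79%. Its groups overlapped, and its difference turned negative without wild-type tumour 2 (-0.363) or heterozygous tumour 2 (-0.409). Genes of this list with a lower mean were Dnmt3b, a de novo methyltransferase gene, at -0.809 percentage points, and Uhrf1, at -0.106.

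Vessel genes were taken as 2 lists. Of 18 genes of angiogenic signalling 13 had a higher mean, with a median difference of 0.547 percentage points against 0.732 in bins of like level. Pgf, a VEGF family ligand gene (chromosome 12, 85166637 to 85177785), had 7.34%, 6.41%, 6.18% and 8.29% against 5.71%, 2.25% and 5.19%, the highest mean of the list (difference 2.67 percentage points, SE 0.844, limma adjusted p = 0.312). Without wild-type tumour 2 the difference was 1.6 (limma unadjusted p = 0.0833). Nrp1, a co-receptor gene (chromosome 8, 128358591 to 128505476), had 5.86%, 4.92%, 2.82% and 3.42% against 2.33%, 1.70% and 2.00%. Neither overlapped. Kdr, Nrp2, Angpt1, Tek and Tie1, all but the ligand gene Angpt1 receptor genes, had a lower mean, with differences of -0.276 to -0.0449 percentage points. Of 14 genes of endothelial identity 13 had a higher mean, with a median of 0.742 against 0.732. The bin of the junction gene Esam (chromosome 9, 37528089 to 37538319) had 2.95%, 2.75%, 3.86% and 2.78% against 1.58%, 0.684% and 1.6%, and that of Nos3, the nitric oxide synthase gene, 3.09%, 4.44%, 3.12% and 4.55% against 3.08%, 1.69% and 2.15%. Pecam1, the gene of an adhesion molecule of endothelium, had the highest mean, with 6.38%, 7.62%, 7.18% and 6.84% against 4.64%, 6.36% and 5.33%. The groups did not overlap in any of these 3, although for Nos3 and Pecam1 they came within a few hundredths of a percentage point.

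Epithelial genes were split by layer. Of 16 luminal genes 13 had a higher mean, with a median difference of 0.964 percentage points, or 0.731 with genes of the same bin counted once, against 0.894 in bins of like level. Gata3, the luminal transcription factor gene (chromosome 2, 9857078 to 9887953), had 7.91%, 7.75%, 4.95% and 8.01% against 4.96%, 3.25% and 4.61%, where heterozygous tumour 3 lay just under wild-type tumour 1. Cdh1, the gene of E-cadherin, shares its bin with the basal gene Cdh3, with 5.34%, 7.09%, 5.12% and 6.24% against 4.10%, 2.81% and 5.26%. Elf5, a gene of alveolar luminal cells, had the highest mean, with 7.55%, 7.85%, 8.18% and 7.10% against 7.15%, 6.57% and 7.08%. Of 10 basal and myoepithelial genes 8 had a higher mean, with a median of 0.305 against 0.894. The groups were apart, with the heterozygous tumours higher, in 0 of these 10 genes and in 1 of the 16 luminal genes. That share was 11.4% over all bins and 13.8% over bins with a gene midpoint. Mylk, the contraction kinase gene, led the basal genes in level with 6.18%, 8.08%, 5.85% and 3.33% against 3.72%, 4.46% and 4.47%, and heterozygous tumour 4 was the lowest of all 7.

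Stromal and immune cells are the other main cells of a tumour. Of 10 fibroblast and matrix genes 9 had a higher mean, with a median difference of 0.449 percentage points against 0.584 in bins of like level. Pdgfra, the growth factor receptor gene of fibroblasts, had 2.76%, 4.92%, 3.68% and 2.71% against 2.51%, 2.62% and 1.92%, and the fibronectin gene Fn1 3.42%, 4.44%, 4.61% and 3.71% against 3.02%, 2.51% and 3.09%. Both kept the groups apart, while the collagen gene Col1a1 overlapped, at 7.62%, 2.90%, 5.19% and 4.35% against 4.16%, 2.63% and 5.24%. Of 11 immune genes 9 had a higher mean, with a median of 0.452 against 0.732. Cd14, a monocyte receptor gene (chromosome 18, 36725064 to 36726815), had 3.32%, 3.97%, 3.69% and 3.4% against 2.07%, 1.35% and 1.98%, and Ncr1, a natural killer cell receptor gene, 2.75%, 2.77%, 2.74% and 2.17% against 1.61%, 0.663% and 1.26%. The heterozygous tumours were higher throughout at these genes. The lysozyme gene Lyz2 overlapped, at 4.63%, 5.62%, 5.68% and 4.68% against 5.71%, 4.13% and 4.86%, and its difference was -0.137 without wild-type tumour 2.

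Of 18 tumour suppressor genes 15 had a higher mean, with a median difference of 1.07 percentage points against 0.894 in bins of like level. Nf1, which restrains Ras (chromosome 11, 79339590 to 79581609), had the highest mean of the list, with 8.28%, 12.6%, 7.75% and 8.78% against 5.69%, 4.70% and 8.34%. Wild-type tumour 3 lay inside the heterozygous range. Axin1, part of the complex that degrades beta-catenin (chromosome 17, 26131217 to 26195811), had 7.01%, 7.03%, 4.63% and 4.56% against 4.11%, 2.46% and 3.65%, without overlap (difference 2.40 percentage points, SE 0.787, limma adjusted p = 0.314). Genes with a lower mean included Tsc2 and Smad4, at -0.823 and -0.0715 percentage points.

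Of 19 genes of middle T signalling and oncogenes 18 had a higher mean, with a median difference of 1.08 percentage points against 1.09 in bins of like level. Middle T works by binding Src family kinases and recruiting phosphoinositide 3-kinase. Src had 4.47%, 6.91%, 5.18% and 3.57% against 2.97%, 3.35% and 3.88%, and Pik3r1, the regulatory subunit gene of that kinase, 9.86%, 10.6%, 7.87% and 8.51% against 9.0%, 7.04% and 6.89%. Both overlapped. Ccnd1, the cyclin D1 gene (chromosome 7, 144929931 to 144939831), had 6.64%, 7.44%, 3.88% and 3.6% against 3.10%, 3.23% and 3.14%. Its wild-type tumours lay close together and under every heterozygous tumour (difference 2.24 percentage points, SE 0.821, limma adjusted p = 0.332). The 1 gene with a lower mean was Myc, at -0.391 percentage points.

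Housekeeping genes were listed as a comparison, and 9 of 10 had a higher mean, with a median difference of 0.790 percentage points against 0.993 in bins of like level. B2m, a gene of antigen presentation, had 4.74%, 6.32%, 4.16% and 4.74% against 2.96%, 3.12% and 3.87%, and the proteasome gene Psmb2 5.92%, 5.14%, 4.94% and 5.57% against 4.48%, 3.61% and 3.85%. Neither overlapped. Ywhaz, a gene of an adaptor protein of signalling, had 5.54%, 5.15%, 6.0% and 4.85% against 5.96%, 3.30% and 4.92%, with overlap, and -0.0567 as its difference without wild-type tumour 2.

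**Figure D5:**
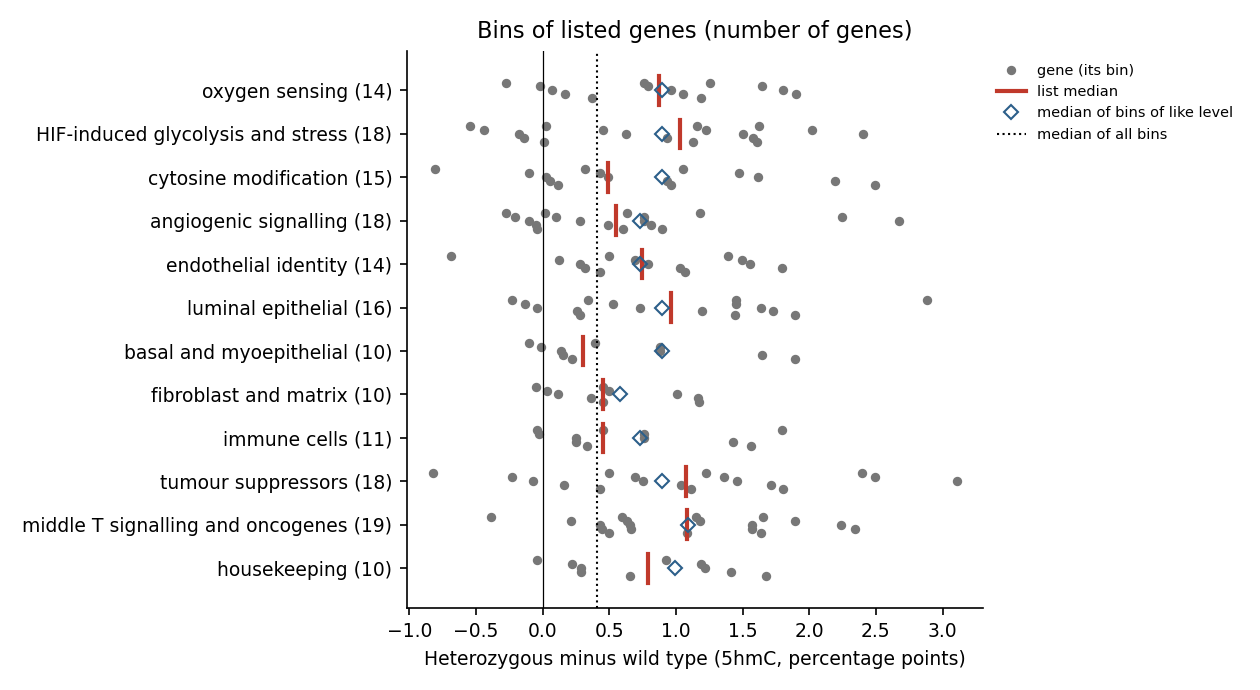
Difference of group means (percentage points) in the bin of each listed gene, 1 point per gene, with the list's median in red, the median of bins of like level as a diamond and that of all bins, 0.411, as a dotted line. List medians run from 0.305 (basal) to 1.08 (middle T signalling), and most points lie above 0.

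Gene families that lie in clusters gave a range of levels. Olfactory receptor genes, silent outside the nose in most tissues, lay in 154 bins with 1.85%, 1.99%, 1.89% and 1.63% in heterozygous and 1.57%, 1.38% and 1.52% in wild-type tumours, 23.6% higher and without overlap. Vomeronasal receptor genes, in 103 bins, had 1.10% ± 0.101 (SD, n = 4) against 0.948% ± 0.0776 (SD, n = 3), 16.1% higher. The vomeronasal difference was 0.153 percentage points, and 0.261 over bins above 0 in all 13 tumours. Of the olfactory bins 70.8% and of the vomeronasal bins 62.1% had a higher mean, below the share of all bins. Both families lay in bins of low level, with means of 1.69% and 1.07% in the other model. The share was 68.7% in level class 4, which had a mean of 1.69% in that model, and 60.7% in class 3, which had 1.22%. Against bins of such a level, neither family thus had a low share. The bin with the most olfactory receptor genes (20, Olfr610 to Olfr67, chromosome 7, 103500001 to 103800000) had 1.04%, 0.906%, 0.729% and 0.685% against 0.198%, 0.383% and 0.333%. The groups did not overlap there, although both were low. They were apart, with the heterozygous tumours higher, in 16 of the 154 olfactory bins (10.4%), against 11.4% of all bins.

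Families of broadly active genes stood at a higher level. Ribosomal protein genes, in 70 bins, had 4.30% ± 0.407 (SD, n = 4) against 3.55% ± 0.179 (SD, n = 3), 21.1% higher, with 61 of 70 bins higher. Proteasome subunit genes, in 36 bins, had 4.66% against 3.76%, 24.2% higher, and genes of mitochondrial complex I, in 37 bins, 3.96% against 3.18%, 24.5% higher. Zinc finger genes named Zfp, in 231 bins, had 3.38% against 2.70%, 24.9% higher. Integrin genes, in 23 bins, had 4.70% against 4.04%, 16.3% higher, and collagen genes, in 37 bins, 3.45% against 2.78%, 24.4% higher.

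Hox genes set position along the body axis. Their 7 bins held 2.15% ± 0.311 (SD, n = 4) against 1.90% ± 0.319 (SD, n = 3), 12.9% higher with overlap. This difference of 0.245 percentage points was 0.0812 without wild-type tumour 2, 0.400 without wild-type tumour 1 and 0.398 without heterozygous tumour 4. In the bin of 9 Hoxc genes (chromosome 15, 102900001 to 103200000) heterozygous tumours had 1.57%, 0.952%, 1.68% and 0.942%, and wild-type tumours 1.35%, 1.87% and 1.57%, a difference of -0.308 percentage points (limma adjusted p = 0.752). Keratin genes, in 8 bins, had 4.2% against 3.39%, 23.9% higher. The genes of keratin-associated proteins of hair, in 11 bins, had 2.43% ± 0.203 against 2.25% ± 0.0272, 8.15% higher, the smallest relative difference of the 12 families found. That difference, 0.183 percentage points, was 0.110 without heterozygous tumour 2.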

How the data were processed

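TAB-seq libraries of 13 tumours were made per the labels' protocols. The authors deposited 1 table of percent values, the 5hmC percentage in each 300 kb bin and tumour. The submitters' processing notes list Bismark 0.13.1 and the build mm9, without a role, but the last bin of chromosome 1 ends at 195471971, the GRCm38 length, so GRCm38 is used. Of coverage, minimum depth and conversion controls the sources used here give nothing, so each bin weighs alike and precision is unknown.

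Columns were matched to tumours by the labels' descriptions. Bins above 0 in at least 1 tumour were kept, and 0 was kept as a value; 6947 were above 0 in all 13. Single values were tested by exact permutation of the tumours between groups (two-sided, on group means). Bins (with a trend) and windows (3 Mb, at least 5 bins, without a trend) were fitted with limma 3.58.1 (R 4.3.3) over 13 tumours and 4 group means, with Benjamini-Hochberg adjustment over all bins or windows and a threshold of 0.05. The fit was checked on simulated data. For gene counts, lists and families, genes (20665 protein-coding, RefSeq GRCm38.p6) were put in the bin of their midpoint. Bins and windows picked by p or level were named by genes whose bodies overlap them, in whole or in part.

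Named were the 8 bins with the smallest p in each direction, 3 windows in each direction, 2 chromosomes (largest and smallest ratio of means), and per list the 2 genes with the smallest p, the one with the highest mean, and Egln1; the 3 windows by level, the genes with a lower mean and Hif1a were added after their values were seen. Values of some bins and genes these rules take are not reported here. Members and lists were chosen with earlier results of these data known. Alternatives covered bin filters, scales (log2 with 0.5 added), weights, class numbers, thresholds, a replicate block and leaving out each tumour.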

Additional observations from a re-analysis of the deposited data

Results flagged for a closer look

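In groups of 4 tumours the highest or lowest value was set against the others; a gap above Dixon's critical value, as a part of the whole range, was taken as standing apart. Of 140 values checked in the heterozygous tumours 8 stood apart (5.71%), where chance gives about 1 in 20. Heterozygous tumour 4 was low in level class 4, at 1.42% against 1.82% to 1.89% in the other 3, and in bins without a gene midpoint, at 1.44% against 1.82% to 1.88%. It was also low in the bin of the natural killer cell gene Ncr1, at 2.17% against 2.74% to 2.77%. Heterozygous tumour 2 was high in the bin of Tet3, at 7.36% against 5.38% to 5.68%, and in the window of chromosome 6 from 54000001, at 5.13% against 4.02% to 4.10%. The same tumour was low in the bin of Zfp939 and Zfp619, at 1.81% against 3.79% to 4.17%. Heterozygous tumour 3 was low in the bin of Gata3, at 4.95% against 7.75% to 8.01%. Heterozygous tumour 1 was high in the bin with the most vomeronasal receptor genes, at 1.34% against 0.436% to 0.467%.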

How the results depend on the processing

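The slope difference of 0.297 kept its direction throughout, and it was 0.298 with an exact permutation p of 0.0571 in bins above 0 in all 13 tumours; with 1 tumour left out it ran from 0.239 to 0.338. The gap between level classes was 0.138 as a ratio to the tumour's mean (exact permutation p = 0.20) and 1.15 to 1.64 percentage points with 1 tumour left out. The difference in bins above 5% became 12.6 points at a threshold of 4% and 2.87 at 7.5% (exact permutation p = 0.0571 each), and 8.62 to 12.3 with 1 tumour left out. Single bins that passed numbered 1 on the log2 scale and 1 on the arcsine scale, in both the last bin of chromosome 14, and 0 to 1 with 1 tumour left out; at an unadjusted p under 0.05 there were 451 to 1173 over all settings. Windows that passed numbered 42 with the 7 tumours alone, 414 with sample weights and 0 to 467 with 1 tumour left out. Relative to the tumour's mean, 0 windows and 0 chromosomes passed with any 1 tumour left out. Gadd45a was -0.212 with sample weights and -0.409 to 0.533 with 1 tumour left out, Lyz2 -0.137 to 0.655, Egln1 0.281 to 2.17, Col1a1 0.136 to 1.71, Ywhaz -0.0567 to 1.27, level class 1 -0.0259 to 0.0359 and level class 2 -0.00335 to 0.0784 percentage points. The causes were not tested, beyond the smaller number of arrangements with fewer tumours.

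Tumours of both groups share numbers 1 to 3. Bin deviations from the group mean had an r of -0.00268, -0.0972 and -0.0687 between same-numbered tumours. Between tumours of different numbers r was -0.0298 to 0.0850. These few values cannot show whether the numbers stand for a shared litter or run, and an effect of such a factor on the overall level was not tested. With the replicate number as a block over 3 pairs, the smallest exact permutation p is 0.25. There the genome-wide difference was 0.665, the slope difference 0.322, the class gap 1.59 and the share above 5% 12.3 points. In limma the block was fitted over all 13 tumours, with numbers shared between the 2 models, and was no test of pairs. Heterozygous tumour 4, alone in its number, then added nothing to the difference. In that fit 0 bins and 441 windows passed, and 467 windows passed without a block when that tumour was left out. No read depth was given, so the depth that limits single bins cannot be stated.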

Other observations

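Among the 10 bins with the highest mean over the 7 tumours are the 5 described here, chosen after their values were seen. The others overlap Snd1, Etv6, Gnaq and Edem3, or are the gene-free last bin of chromosome 14. Nfib, a nuclear factor gene (chromosome 4, 82200001 to 82500000), had 13.7%, 13.1%, 11.8% and 12.2% in heterozygous and 9.39%, 9.26% and 11.1% in wild-type tumours. Auts2 (chromosome 5, 132300001 to 132600000), linked to neural development, had 11.2%, 14%, 10.9% and 11.8% against 9.03%, 9.01% and 8.01%. Both kept the groups apart. Trps1, a GATA-type factor gene of breast epithelium (chromosome 15, 50700001 to 51000000), had 12.3%, 11.4%, 10.2% and 11.8% against 9.04%, 7.62% and 10.3%, with overlap. Chrm3, a muscarinic receptor gene (chromosome 13, 9900001 to 10200000), had 9.48%, 17.3%, 9.04% and 11.2% against 6.82%, 3.51% and 8.27%, the widest range among the bins with a gene here. Nfia, the sister gene of Nfib (chromosome 4, 97800001 to 98100000), had 13.3%, 11.5%, 8.33% and 8.96% against 8.50%, 5.32% and 8.14%, with overlap.

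The bin with most cytochrome P450 genes, 6 of the Cyp4f group (chromosome 17, 32400001 to 32700000), had 3.85%, 4.37%, 3.24% and 3.01% in heterozygous and 1.85%, 1.40% and 2.60% in wild-type tumours, without overlap (limma adjusted p = 0.321). The integrin gene Itga7 (chromosome 10, 128700001 to 129000000) had 3.84%, 6.64%, 4.61% and 4.18% against 3.27%, 3.16% and 3.10%, also without overlap (limma adjusted p = 0.388).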
